A study of Mus musculus with 12 samples.

Results

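Osteoclasts are the multinucleated cells that resorb bone, and they form from the same myeloid precursors as macrophages. The 9 genes described here mark the steps of that path: Tnfrsf11a, Oscar, Nfatc1, Dcstamp, Ocstamp, Atp6v0d2, Itgb3, Ctsk and Acp5. They were taken by symbol from the 46729 entries of the deposited expression table, and each had an entry of its own that was shared with no other gene. Of the 9, 7 had a mean of at least 1 FPKM (fragments scaled to transcript length and library size) and no group at 0, as had 11580 entries in all. Ocstamp and Oscar did not pass.

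In the textbook account, precursors kept alive by CSF1 meet RANKL, the ligand of the receptor RANK that Tnfrsf11a encodes. RANK signals through TRAF6, and receptors such as OSCAR add a calcium signal through adaptors with immunoreceptor motifs. Both routes meet at NFATc1, the transcription factor that switches on genes for cell fusion, attachment to bone, acid secretion and matrix digestion. Interferon gamma (IFNγ) is known in mice as an inhibitor of RANKL-driven osteoclast formation.

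The cells were bone-marrow-derived macrophages of C57BL6 mice, differentiated over 10 days. Interleukin-3 was present in the first culture step, and L-929 conditioned medium, a source of CSF1, throughout. Cells were left untreated or given IFNγ at 0.2 U/ml, 2 U/ml or 20 U for 8 h, the last of these labelled without a volume. The labels list 3 libraries in each of the 4 groups, describe the cells as macrophages and name no RANKL. Nothing in the labels describes cultures driven to form osteoclasts. The labels do not say whether the 3 libraries came from separate animals or cultures.

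The table holds 1 FPKM value per group, so no difference below has a replicate check, a standard deviation or a p-value, and the depth is unknown. An entry counted as higher or lower had to differ by a log2 ratio of at least 1 in size, taken on the log2(FPKM + 1) scale. Of the genes chosen to check the labels, 6 of 8 were higher at 20 U, against 6.51% of all entries. Among these, Irf1 was at 511 against 34.1 FPKM, Socs1 at 138 against 2.06 and Cxcl9 at 163 against 1.04. Gbp2 was at 343 against 8.13 FPKM, Ciita at 7.56 against 0.157 and Cd274 at 104 against 6.06. The receptor genes Ifngr1 (44.5 against 53.9 FPKM) and Ifngr2 (41.7 against 37.0) were the other 2. At 2 U/ml the same 6 were higher, against 2.5% of all entries. At 0.2 U/ml 2 of the 8 were higher, Irf1 and Gbp2, against 5.23% of all entries. All 10 macrophage markers reached 1 FPKM in some group, with Csf1r between 340 and 418 FPKM, although Lyz2 was listed at 0 in all groups but 20 U. Fewer cells of a type and less RNA per cell cannot be told apart in such bulk values.

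Promoters of 4 of the 9 genes are in the RefSeq table (GRCm38.p6, the assembly behind mm10). The 3 below are shown because their genes gave 3 different patterns, described further on: Ctsk was lower with each dose, Acp5 stayed close to its untreated value and Tnfrsf11a was highest at 20 U. Each runs 5′ to 3′ from 250 bases before the start of the transcript to 50 after it, and for Acp5, which has 3 such starts, the outermost one is given. Capitals mark the NFAT core GGAAA on either strand and, running on from it in Acp5, a match to a shortened ISRE core.
Ctsk (chr3:95498960-95499259, plus strand): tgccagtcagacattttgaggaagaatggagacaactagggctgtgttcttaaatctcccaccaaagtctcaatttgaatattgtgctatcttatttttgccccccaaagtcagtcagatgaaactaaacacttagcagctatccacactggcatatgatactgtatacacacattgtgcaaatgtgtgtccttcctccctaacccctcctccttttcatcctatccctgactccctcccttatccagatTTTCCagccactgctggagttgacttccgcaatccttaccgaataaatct
Acp5 (chr9:22135697-22135996, minus strand): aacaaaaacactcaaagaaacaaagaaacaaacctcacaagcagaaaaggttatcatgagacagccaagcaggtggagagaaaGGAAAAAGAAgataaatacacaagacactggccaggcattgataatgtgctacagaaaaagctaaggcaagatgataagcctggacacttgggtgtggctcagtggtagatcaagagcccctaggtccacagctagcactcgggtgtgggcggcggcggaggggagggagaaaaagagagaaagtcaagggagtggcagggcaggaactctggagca
Tnfrsf11a (chr1:105780473-105780772, plus strand): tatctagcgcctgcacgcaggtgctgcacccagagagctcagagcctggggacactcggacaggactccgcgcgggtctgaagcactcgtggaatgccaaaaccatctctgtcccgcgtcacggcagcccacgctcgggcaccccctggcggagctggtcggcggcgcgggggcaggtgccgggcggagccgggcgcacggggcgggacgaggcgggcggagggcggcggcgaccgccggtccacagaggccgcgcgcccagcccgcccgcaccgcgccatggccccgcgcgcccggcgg

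The Ctsk and Acp5 windows each held 1 NFAT core and the Tnfrsf11a window held 0. That core is in 61.3% of the 32851 promoters of the same length, so its presence sets no promoter apart. Searches on both strands for an AP-1 site (TGANTCA, in 7.81% of promoters), a GAS site (TTCNNNGAA, 8.30%) and an E-box (CACGTG, 7.15%) found no match in these 3 windows. A shortened ISRE core (GAAANNGAA, in 8.56% of promoters) had 1 match in the Acp5 window, overlapping the NFAT core, and 0 in the other 2. The windows differed in base composition, with a GC content of 43.7% for Ctsk, 48.7% for Acp5 and 76.7% for Tnfrsf11a. The other 2 Acp5 windows, not shown, had 64.0% and 54.7%, with 1 and 2 NFAT cores and no match to the shortened ISRE core. Oscar's window, also not shown, held 4 NFAT cores.

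The 9 genes did not move together. Atp6v0d2 and Itgb3, which serve fusion, acid secretion and attachment, were lower at 2 U/ml and at 20 U, and the protease gene Ctsk was lower at each step but stayed just short of the size rule. The receptor gene Tnfrsf11a, the factor Nfatc1, the fusion gene Dcstamp and the phosphatase gene Acp5 stayed within a log2 ratio of 0.67 of untreated at every dose. At 20 U, 2 of the 7 measured genes were lower and 0 higher, where 2.94% of all 11580 entries were lower and 6.51% higher. At 2 U/ml the same 2 were lower and 0 higher, against 0.76% and 2.5% of all entries. At 0.2 U/ml none of the 7 passed, against 0.328% lower and 5.23% higher. The median log2 ratio of the 7 was -0.19, -0.17 and -0.11 at 0.2, 2 and 20 U, beside medians between 0.00 and 0.01 over all entries.

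**Figure D1:**
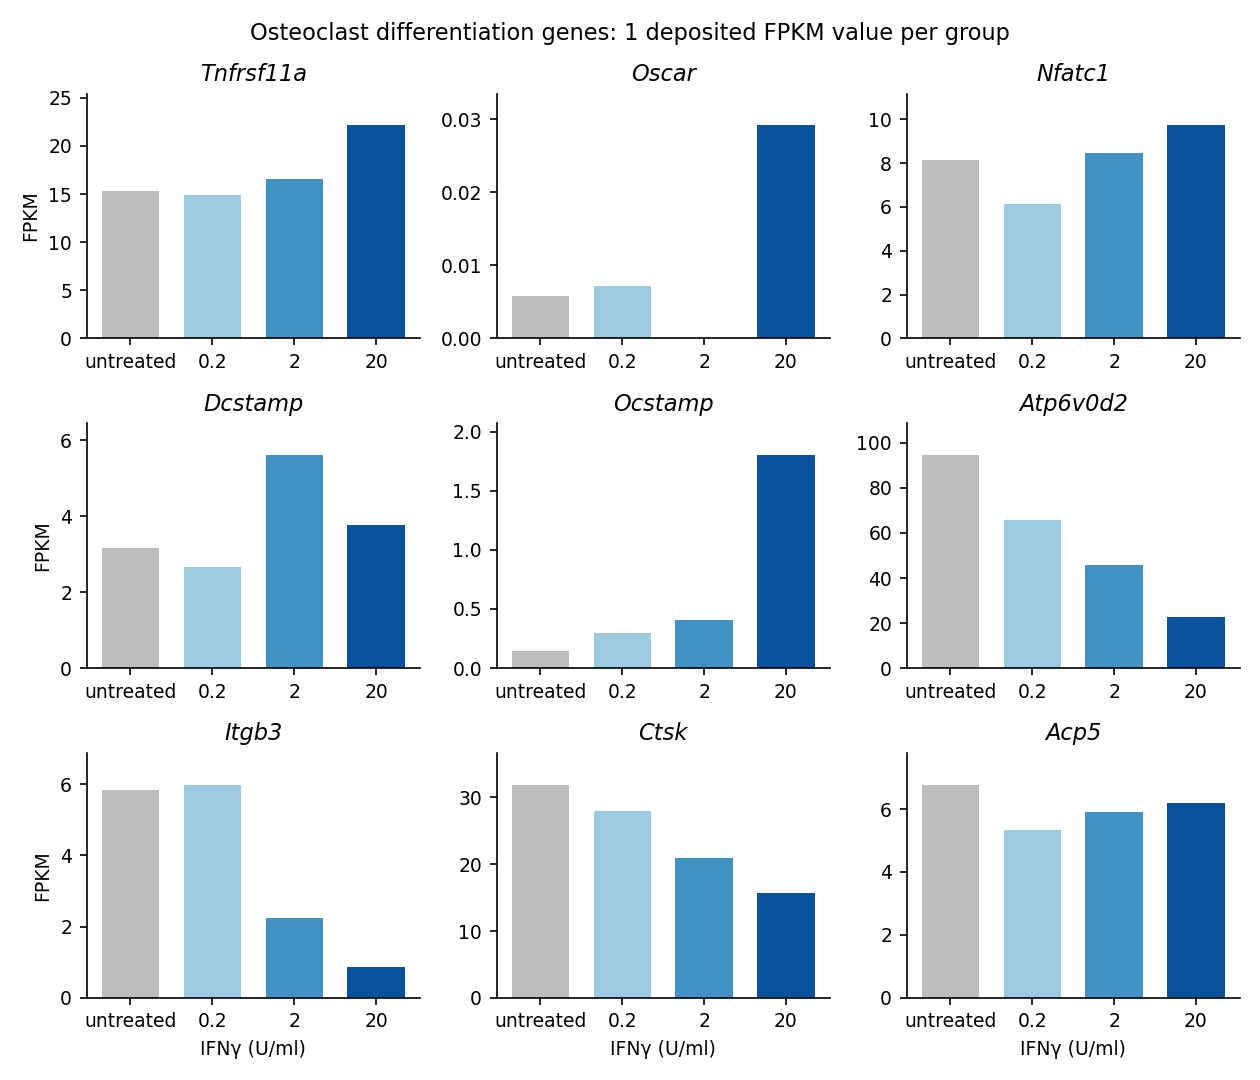
FPKM (vertical axes, each from 0 with its own range) of the 9 genes in untreated cells and at 0.2, 2 and 20 U/ml IFNγ, 1 deposited value per bar and no error bars; the 20 U label names no volume. Atp6v0d2 steps down from 94.6 to 22.7 FPKM and Ctsk from 31.9 to 15.7, while Oscar never exceeds 0.0291 FPKM.

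Tnfrsf11a encodes RANK (chromosome 1, 105780718 to 105847981, plus strand, GRCm38). Untreated cells had 15.3 FPKM, and the doses of 0.2, 2 and 20 U had 14.9, 16.6 and 22.1. The highest dose stood above the other 3 groups, which lay close together, and its log2 ratio to untreated was 0.50, under the size rule. Of the relatives of Tnfrsf11a, Cd40 was at 56.3 FPKM at 20 U against 2.17, a log2 ratio of 4.18. Tnfrsf1b was at 50.9 against 63.6 FPKM, a log2 ratio of -0.32, and Tnfrsf1a is given below. Oscar, a collagen-binding receptor that signals through the Fc receptor gamma chain (chromosome 7, 3609813 to 3616157, minus strand), was close to 0 throughout. Its values were 0.00582, 0.00710, 0 and 0.0291 FPKM in the same order. Of the receptor pair, Tnfrsf11a passed the filter on low values and Oscar did not.

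The partners around these receptors were mostly steady. Tnfsf11, which encodes RANKL, and Tnfrsf11b, which encodes its decoy receptor osteoprotegerin, were listed at 0 in all 4 groups. Of 13 receptor, ligand and adaptor genes, 9 were measured. At 20 U 1 was higher and 0 lower, against 6.51% and 2.94% of all entries. The median log2 ratio of the 9 was 0.05. The higher one was Tnfrsf1a, a TNF receptor, at 161 against 76.6 FPKM. Trem2, a receptor that signals through the adaptor Tyrobp, was at 1113 against 1601 FPKM, and the scaffold gene Sqstm1 at 442 against 590. Traf6 was at 3.92, 4.34, 4.51 and 4.09 FPKM in rising order of dose. Among 14 measured genes of the kinase and calcium branch 0 passed in either direction at 20 U, with Src at 3.23 against 1.75 FPKM, Plcg2 at 40.1 against 27.2 and Btk at 44.1 against 33.4.

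Nfatc1, the master factor of the pathway (chromosome 18, 80606205 to 80713071, minus strand), had 8.14 FPKM in untreated cells. With 0.2, 2 and 20 U it had 6.12, 8.47 and 9.72, so its lowest value was at the lowest dose and its highest at the highest. The log2 ratios to untreated were -0.36, 0.05 and 0.23. Of its relatives, Nfatc2 was at 7.58 FPKM at 20 U against 4.50, Nfatc3 at 6.23 against 5.98 and Nfat5 at 3.42 against 5.38. Nfatc4 was listed at 0 in 3 groups and at 0.00678 FPKM in the other.

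Factors that act beside or against NFATc1 showed no common direction. Of 16 measured factors that favour osteoclast formation, 1 was higher and 1 lower at 20 U, against 6.51% and 2.94% of all entries. The median log2 ratio of the 16 was 0.27. The higher one was Ppargc1b, a coactivator of mitochondrial genes, at 4.87 against 1.29 FPKM, and the lower one Tfec, a factor of the MITF family, at 7.61 against 19.0. Fos, needed for osteoclast formation in mice, was at 28.6 against 14.2 FPKM, a log2 ratio of 0.96. Of 13 genes listed as restraining osteoclasts, 0 were higher at 20 U and 1 was lower, Rgs10 at 161 against 329 FPKM. Rgs10 was listed there although its loss in mice impairs osteoclast formation; without it, 0 of 12 passed in either direction. Id1 was at 104 against 58.0 FPKM at 20 U, and Cyld, a deubiquitinase gene, had a log2 ratio of 0.74. At 2 U/ml Id1 was at 117 FPKM, a log2 ratio of 1.00 and just past the rule. It was the only restraining gene higher at that dose, against 2.5% of all entries. Irf8, a main restraining factor, was not analysed here.

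Dcstamp and Ocstamp encode membrane proteins needed for the fusion of osteoclast precursors in mice. Dcstamp (chromosome 15, 39745930 to 39760938, plus strand) had 3.15 FPKM in untreated cells and 2.65, 5.61 and 3.78 with 0.2, 2 and 20 U. Its highest value was at the middle dose, with a log2 ratio of 0.67 to untreated and 0.85 to 0.2 U/ml. Ocstamp (chromosome 2, 165393760 to 165400405, minus strand) was at 0.142, 0.299, 0.403 and 1.80 FPKM. It stood higher at each dose, and only the value at 20 U was above 1 FPKM. Its mean of 0.661 FPKM kept it out of the counts, and its log2 ratio at 20 U was 1.29 on a scale that understates low values.

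Atp6v0d2 encodes the d2 subunit of the proton pump's membrane sector and is needed for efficient osteoclast fusion in mice (chromosome 4, 19876841 to 19922605, minus strand). It was the most abundant of the 9 genes in every group, by a small margin over Tnfrsf11a at 20 U. From 94.6 FPKM in untreated cells it stepped to 65.6, 45.9 and 22.7 with 0.2, 2 and 20 U. Each dose was lower than the one before, and 20 U left 24.0% of the untreated value. The log2 ratios to untreated were -0.52, -1.03 and -2.01, and at 20 U it stood at rank 25 from the lowest of the 11580 entries.

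Among the 7 measured genes, Atp6v0d2 and Ctsk stood in strictly descending order over the 4 groups and 0 in ascending order. Over all entries 6.54% were in descending and 9.28% in ascending order. The step from 0.2 to 2 U/ml took Atp6v0d2 down by a log2 ratio of -0.51 and the step from 2 to 20 U by -0.99. At that second step none of the 7 passed, against 1.11% of entries lower and 2.9% higher. Its value there lay just short of the size rule, and both other scalings of the columns put it past, at -1.03 and -1.09.

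**Figure D2:**
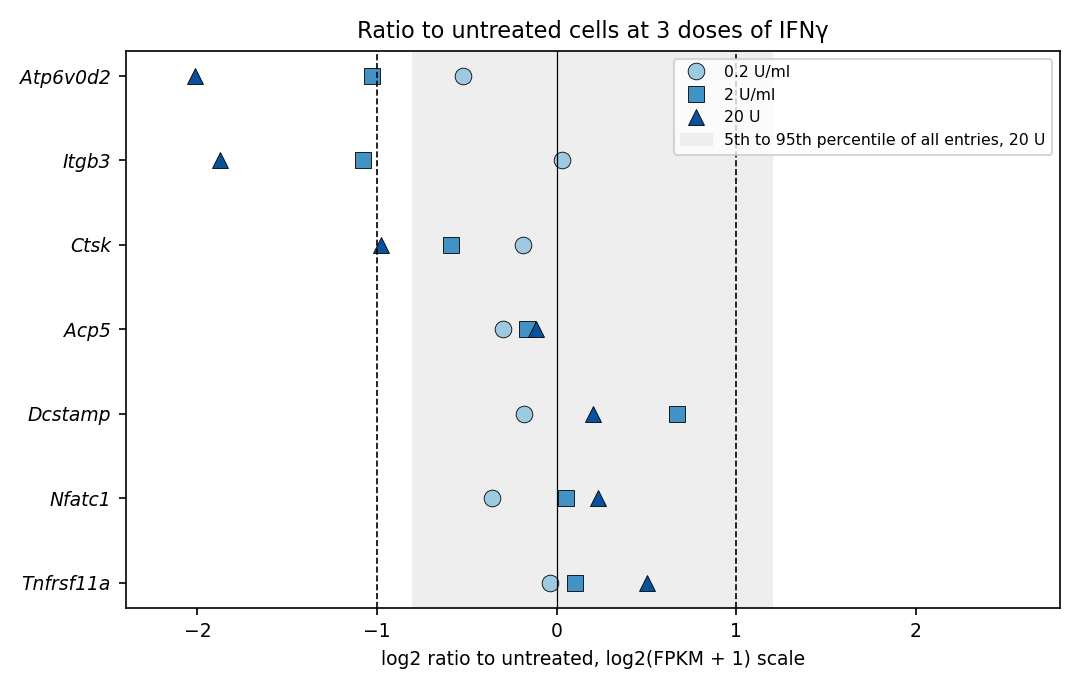
Log2 ratio to untreated cells on the log2(FPKM + 1) scale (horizontal axis) for the 7 measured genes at 0.2 U/ml (circles), 2 U/ml (squares) and 20 U (triangles); dashed lines mark the size rule and the grey band the 5th to 95th percentile of all 11580 entries at 20 U, from -0.80 to 1.20. Atp6v0d2, Itgb3 and Ctsk lie left of the band at 20 U and the other 4 inside it.

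The d subunit exists in another form, the widely expressed d1 encoded by Atp6v0d1, which gave a direct comparison. Atp6v0d1 had 161 FPKM in untreated cells and 132, 145 and 125 with 0.2, 2 and 20 U, a log2 ratio of -0.37 at 20 U. Of the summed FPKM of both forms, Atp6v0d2 made up 37.0% without IFNγ and 33.3%, 24.1% and 15.4% with 0.2, 2 and 20 U. The d2 share was lower at each dose.

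Some other pump subunits were lower as well. Of 15 subunit genes measured with Atp6v0d2 included, 3 were lower and 0 higher at 20 U, against 2.94% and 6.51% of all entries. The median log2 ratio of the 15 was -0.37, beside 0.01 over all entries. This subset was chosen after the values were seen. Beside Atp6v0d2 these were Atp6v0a1, an a subunit of the membrane sector, at 62.2 against 142 FPKM, and Atp6v1a, the catalytic subunit, at 60.9 against 134. Tcirg1, the a subunit form that osteoclasts use at the ruffled border, was at 1069 against 844 FPKM. The chloride transporter gene Clcn7, needed for acid secretion by osteoclasts, was at 64.1 against 31.7 FPKM, a log2 ratio of 0.99. Of all 21 measured acid secretion genes, which do not include Atp6v0d2, 2 were lower and 0 higher. Car2, the carbonic anhydrase that feeds the osteoclast pump, did not exceed 0.276 FPKM.

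**Figure D3:**
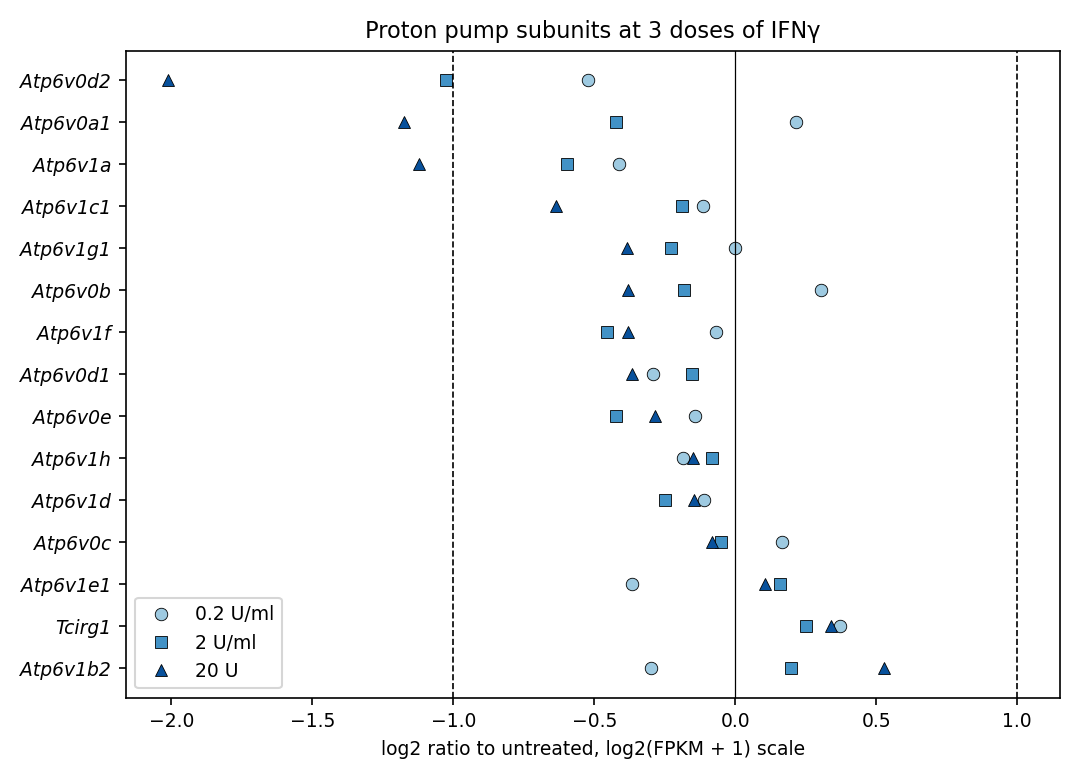
Log2 ratio to untreated cells on the log2(FPKM + 1) scale (horizontal axis) for 15 proton pump subunit genes at 0.2 U/ml (circles), 2 U/ml (squares) and 20 U (triangles), ordered by the ratio at 20 U, with dashed lines at the size rule; the Atp6v0c entry is shared with other genes. Atp6v0d2 lies farthest to the left at 20 U, at -2.01, followed by Atp6v0a1 at -1.18 and Atp6v1a at -1.12.

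Itgb3 encodes the integrin β3 chain, which pairs with αv to hold the osteoclast to bone (chromosome 11, 104608000 to 104670476, plus strand). Without IFNγ it had 5.84 FPKM, and with 0.2, 2 and 20 U it had 5.98, 2.24 and 0.867. Untreated cells and 0.2 U/ml were close to each other, and both higher doses were below them. At 20 U 14.8% of the untreated value was left, and the log2 ratios at the 3 doses were 0.03, -1.08 and -1.87. The sign at 0.2 U/ml turned to -0.03 under both other scalings. At the step from 0.2 to 2 U/ml Itgb3 was the only one of the 7 to pass, at -1.11, against 6.26% of entries lower and 1.51% higher.

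The size of the Itgb3 difference depended on the pseudocount, because its value at 20 U was under 1 FPKM. With 0.1 in place of 1 the log2 ratio at 20 U was -2.62. Its αv partner Itgav had 75.0 FPKM without IFNγ and 126, 58.5 and 78.6 with 0.2, 2 and 20 U. From 0.2 to 2 U/ml the log2 ratio of Itgav was -1.10, close to that of Itgb3, but from an unlike start. Relative to untreated, Itgav stood at 0.75, -0.35 and 0.07 at 0.2, 2 and 20 U, while Itgb3 was at 0.03 at 0.2 U/ml. Other β chains were far more abundant per length: Itgb1 was at 170 against 184 FPKM, Itgb2 at 297 against 249, Itgb5 at 99.5 against 192, and Itgb7 at 66.8 against 20.2. Of the summed FPKM of Itgb1, Itgb3 and Itgb5, Itgb3 made up 1.53% in untreated cells and 0.321% at 20 U. Of 16 measured integrin and podosome genes other than Itgb3, 0 passed at 20 U, against 6.51% of all entries higher and 2.94% lower. Itgb5 had a log2 ratio of -0.94, the kinase Ptk2b 0.77 and the actin regulator Was 0.44. From 0.2 to 2 U/ml, 3 of the 16 were lower, Itgav, Cbl and Tln1, and 0 higher, against 6.26% and 1.51% of all entries. All 3 stood above untreated at 0.2 U/ml, at log2 ratios of 0.75, 0.66 and 1.36.

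Itgb3 is also a gene of megakaryocytes, whose markers were therefore compared. Itga2b, the αIIb partner of β3 in that lineage, was at 1.04, 1.22, 0.297 and 0.500 FPKM in rising order of dose, and Pf4, which macrophages also express, at 472, 470, 251 and 194. Of the 7 erythroid and megakaryocyte markers, 5 were under 1 FPKM in every group, and Gp9 did not exceed 0.0328 FPKM. The summed level of the 7 ranged from 195 FPKM at 20 U to 473 in untreated cells, nearly all of it Pf4. The part of such cells in the Itgb3 values was not tested.

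Ctsk and Acp5 serve the digestion of bone matrix. Ctsk, the cysteine protease that cleaves bone collagen (chromosome 3, 95499256 to 95509362, plus strand), had 31.9 FPKM without IFNγ and 27.9, 20.9 and 15.7 with 0.2, 2 and 20 U. Each dose was lower than the one before, with 49.2% of the untreated value left at 20 U. The log2 ratio at 20 U was -0.98, just outside the size rule, while a pseudocount of 0.1 gave -1.02, upper-quartile scaling -1.09 and quantile normalization -1.11. Acp5, which encodes tartrate-resistant acid phosphatase, the histological stain of osteoclasts (chromosome 9, 22126727 to 22135711, minus strand), was at 6.77, 5.32, 5.92 and 6.18 FPKM. Its 3 treated values lay between 78.6% and 91.3% of untreated, lowest with 0.2 U/ml and nearest to untreated with 20 U.

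The other proteases differed from untreated in both directions. Of 9 measured, 4 were higher at 20 U and 2 lower, against 6.51% and 2.94% of all entries. Mmp14, among the higher genes, reached the mean of 1 FPKM only through its value at 20 U, so the filter favoured that call. The cathepsin genes Ctsc (375 against 41.6 FPKM) and Ctsh (372 against 63.1) and the collagenase genes Mmp13 (20.8 against 5.86) and Mmp14 (6.21 against 0.414) were higher. Mmp9, a gelatinase abundant in osteoclasts, was at 0.552 against 2.26 FPKM, and the macrophage elastase gene Mmp12 at 187 against 629. The closest relatives of Ctsk by family differed from each other, with Ctsl at 311 against 596 FPKM and Ctss at 4661 against 4000. Ctsk was a small part of the 3, at 0.689% of their summed FPKM in untreated cells and 0.314% at 20 U.

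**Figure D4:**
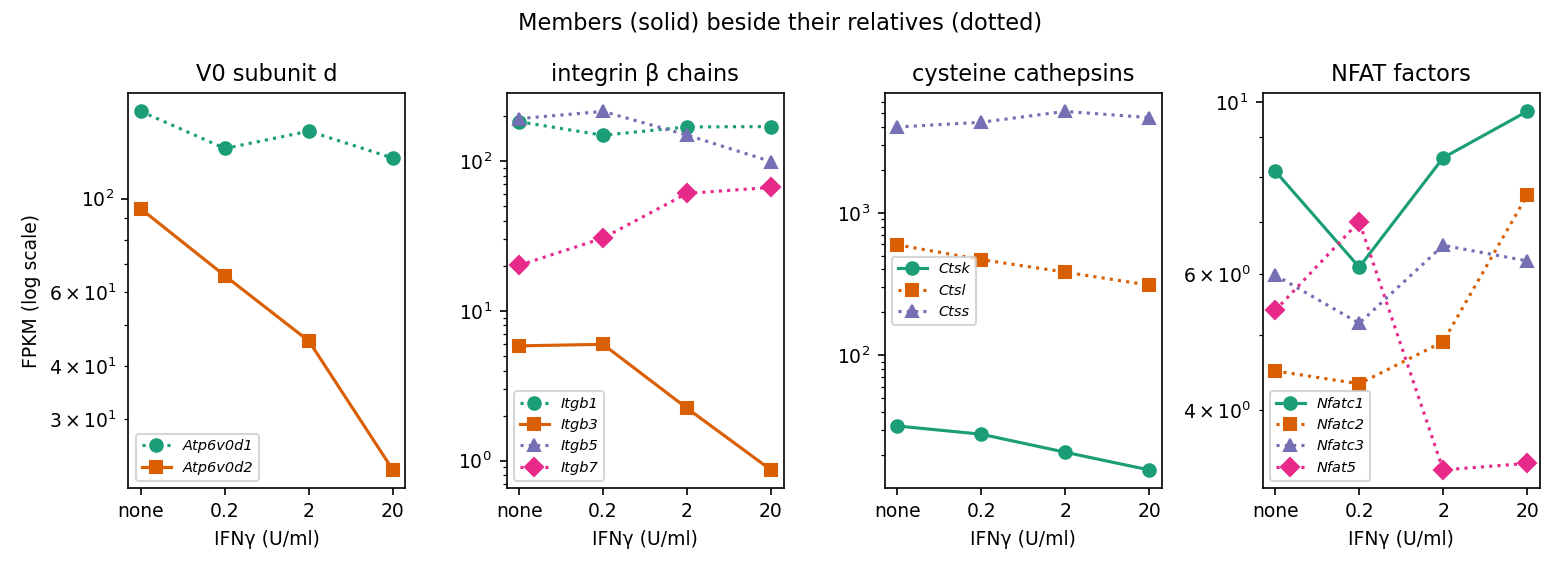
FPKM on a log axis (vertical, a separate range in each panel) in untreated cells and at 0.2, 2 and 20 U/ml IFNγ for 4 of the genes (solid lines) and their relatives (dotted lines), 1 value per group; the 20 U label names no volume. Atp6v0d2 and Itgb3 step down at the higher doses while Atp6v0d1 and Itgb1 stay between 125 and 184 FPKM.

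Among other genes of acid phosphatase, fusion and osteoclast maturity, those past the size rule at 20 U were fusion genes. Acp2, a lysosomal acid phosphatase gene, was at 51.9 against 38.5 FPKM at 20 U and at 79.6 at 0.2 U/ml. Of 12 measured fusion genes other than the 3 named above, 2 were higher and 0 lower at 20 U, against 6.51% and 2.94% of all entries. The higher ones were Cd47, a ligand of SIRPα, at 462 against 180 FPKM, and Snx10, a sorting nexin needed for bone resorption, at 72.9 against 34.0. The tetraspanin gene Cd81 was at 96.3 against 183 FPKM. Of 9 other genes used as markers of mature osteoclasts, 4 were measured and 0 passed, with Slc37a2 at 131 against 80.4 FPKM, Ckb at 349 against 427 and Clec5a at 44.6 against 51.0. Calcr, the calcitonin receptor gene and a defining marker of mature osteoclasts, did not exceed 0.00259 FPKM. Over all these pathway lists together, 8 of 114 measured entries were higher and 6 lower at 20 U, against 6.51% and 2.94% of all entries. The split of the 114 turned to 6 higher and 9 lower under upper-quartile scaling and under quantile normalization alike. At 2 U/ml 3 of the 114 were higher and 0 lower, against 2.5% and 0.76% of all entries. With 0.2 U/ml 4 of the 114 were higher and 0 lower, against 5.23% and 0.328%.

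**Figure D5:**
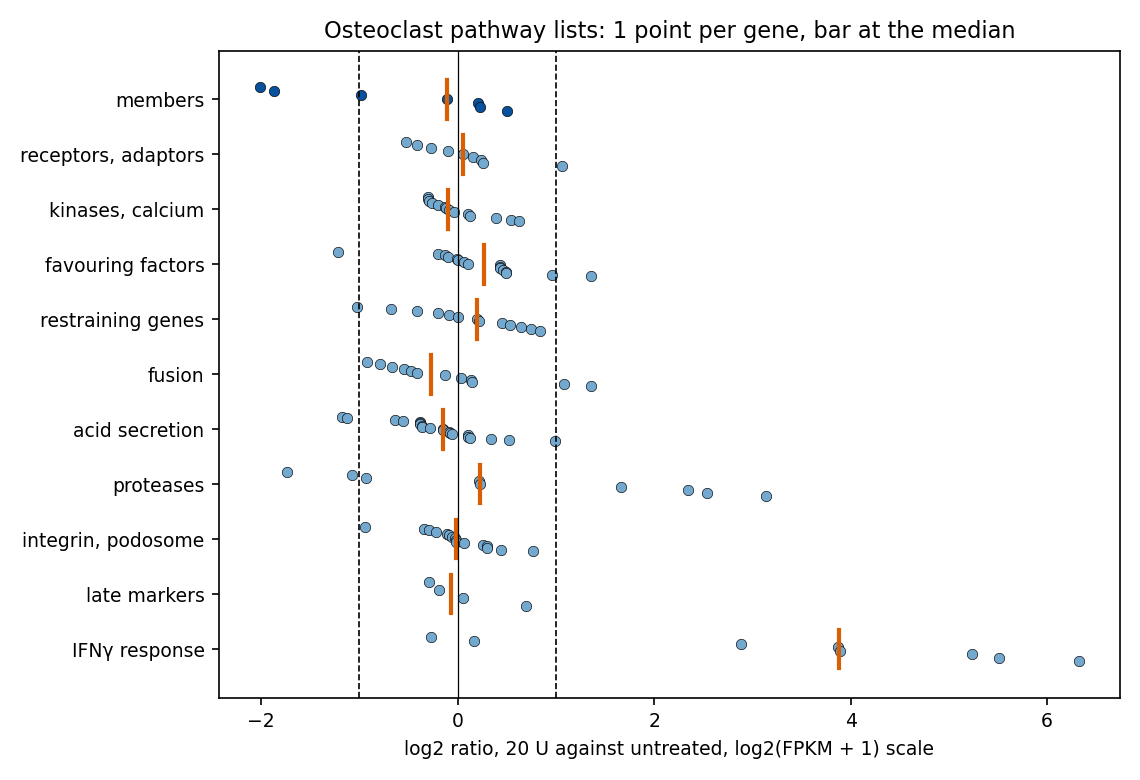
Log2 ratio of 20 U to untreated cells on the log2(FPKM + 1) scale (horizontal axis) for each measured gene of the osteoclast pathway lists and of the IFNγ response list, with an orange bar at each list's median and dashed lines at the size rule. The medians of the pathway lists lie between -0.27 and 0.27, and that of the response list at 3.88.

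The entries nearest to Atp6v0d2 and Itgb3 over the 3 log2 ratios were sought among 9364 single-gene entries by Euclidean distance, and all of these ratios share the untreated value. Nearest to Atp6v0d2 were Epas1, a hypoxia-inducible factor (distance 0.06), Cxcr4, the receptor of CXCL12 (0.08), and Penk, an opioid precursor (0.21). Cxcr4 was at 88.6, 58.6, 41.5 and 21.2 FPKM, close to Atp6v0d2 in level as well. Nearest to Itgb3 were Tecpr1, an autophagy gene (0.10), Clec4d, a C-type lectin receptor (0.21), and Ltc4s, the leukotriene C4 synthase gene (0.28). Tecpr1 was at 109, 112, 53.4 and 27.5 FPKM, with the same step between 0.2 and 2 U/ml.

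Most markers of other cells were low. Of 10 osteoblast and stromal markers, 8 were under 1 FPKM in every group, among them Sp7 and Col1a1, and their summed level, from 250 to 465 FPKM, was nearly all the entry of Spp1, a gene that macrophages and osteoclasts express as well. The same held for all 8 T and NK cell markers, all 6 of mast cells and basophils, 4 of 5 of B cells, 6 of 8 of neutrophils and 4 of 7 of dendritic cells. The neutrophil sum was 17.1 FPKM in untreated cells and 35.3 at 20 U, and the dendritic sum 48.7 and 79.1. Past the size rule at 20 U were S100a8, at 30.4 against 13.3 FPKM, and the entry that Clec9a shares with Clec1b, at 47.1 against 1.27. Itgax, on the dendritic list and also expressed by macrophages, was at 30.7 against 46.7 FPKM. Their part in the values above was not tested.

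The authors' deposited table of a treated against untreated comparison names no dose, and it differed from the dose values for several genes. In the authors' deposited table Itgb3 had a log2 fold change of -3.95 and Ctsk of -0.73, both with a q-value of 9.95e-05, and Atp6v0d2 one of -0.22 (q = 0.034). The authors' deposited table also gave Tnfrsf11a at -1.81 and Nfatc1 at 1.45, both with a q-value of 9.95e-05, and Acp5 at -1.44 (q = 0.0016). Dcstamp was at 0.06 (q = 0.78) in the authors' deposited table, and Ocstamp and Oscar were not tested there. The direction was the same as at 20 U for Itgb3, Ctsk, Atp6v0d2, Nfatc1, Dcstamp and Acp5 and the opposite for Tnfrsf11a. The values per condition in that table match no group, so a shared direction is no check on the 20 U ratios. No value above rests on that table.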

How the data were processed

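RNA was sequenced from 12 libraries in 4 groups. Per the submitters' processing notes, TopHat2 2.1.1, Cufflinks 2.1.1 and Cuffdiff 2.1.1 were used with mm10. The authors deposited FPKM, 1 value per group, per the file headers; whether each combines 3 libraries is not stated there. The untreated column names no unit and was read as FPKM from its range. The second deposited table gives log2 fold changes and q-values of treated against untreated, per the file headers; its 2 columns of values per condition match no group and were not used.

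Ratios are differences of log2(FPKM + 1). Entries needed at least 1 FPKM on average over the 4 groups and no group at 0, since an exact 0 can be a failed estimate; 272 entries were left out by the latter. No test was possible with 1 value per group, so a log2 ratio of at least 1 in size was the rule. Depth cannot be read from these values, so no interval is given. The members and lists were chosen with earlier results of these data known. The text names all 9 members, the 3 genes of each list farthest from a ratio of 0 at 20 U, relatives of the members, genes of the IFNγ response and the 3 entries nearest to each member past the rule; Traf6, Itgav, Mmp9, Mmp12, Mmp13, Car2, Calcr, Tcirg1, Tnfsf11, Tnfrsf11b and single cell type markers were added after their values were seen, as was the subset of pump subunits. List symbols that matched more than 1 entry were not counted. A gene of the response list is not reported here. Positions are from GENCODE M21 on GRCm38. Alternatives were pseudocounts of 0.1 and 0.01, upper-quartile and quantile scaling, other filters on low values and entries at 0 kept. The size rule was tested on simulated data. Python 3.11.15, NumPy 2.4.6 and pandas 2.3.3 were used.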

Additional observations from a re-analysis of the deposited data

How the results depend on the processing

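No paired analysis was possible because the table holds 1 value per group, and for the same reason no replicate could be left out. Of 235 ratios of the measured genes under an alternative, 223 kept their side of the size rule and 12 passed it newly. None lost it and none turned sign while past it. Much of this was fixed in advance. The settings that change only the filter leave each ratio as it was, and a smaller pseudocount can only enlarge a ratio. Only the upper-quartile and quantile scalings could have taken a ratio back under the rule. The count of genes past the rule stayed at 2 or 3 at 20 U and at 2 at 2 U/ml, except that a mean of at least 5 FPKM, which leaves out Itgb3 and Dcstamp, gave 1 at each. Between 0.2 and 2 U/ml the count of 1 became 2 with a pseudocount of 0.1 or 0.01, which added Dcstamp, and 0 with the filter at 5 FPKM. Between 2 and 20 U the count of 0 became 2 with either pseudocount (Itgb3 and Atp6v0d2) and 1 with either scaling (Atp6v0d2). With no filter on low values Ocstamp was the third at 20 U. Leaving Rgs10 out of the restraining genes, chosen after seeing the data, took its count of lower genes from 1 to 0.

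Over all entries, counts that moved by over 1.5 times were mostly those of lower entries. At 20 U 340 became 539 with a pseudocount of 0.1 and 572 with 0.01. At 2 U/ml 88 became 174, 192, 193 with no filter, 154 with entries at 0 kept and 58 with the filter at 5 FPKM. At 0.2 U/ml 38 became 71, 76, 147, 106 and 24 in the same order, and 18 without entries under 200 nt. From 2 to 20 U 128 became 248, 276, 248 and 203, and 336 higher became 518 with no filter. From 0.2 to 2 U/ml 175 higher became 275, 288 and 296. Quantile normalization moved the median ratio of all entries by -0.12 at 0.2 U/ml; no other shift passed 0.1 in size. Depth and the spread between libraries limit every value here, and neither can be read from the table.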

Other observations

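At 0.2 U/ml 4 of 114 measured osteoclast pathway entries were higher by the size rule, against 5.23% of all entries, so the share was not above that of the whole table. The genes below were chosen after their values were seen. Myo10, a myosin of cell protrusions, had 20.4 FPKM without IFNγ and 102, 15.8 and 12.5 with 0.2, 2 and 20 U. Tln1, which links integrins to actin, was at 78.4, 203, 93.4 and 75.4 FPKM in the same order, and the calcium channel gene Itpr2, just short of the rule, at 9.09, 19.2, 7.57 and 7.21. Clcn7 (31.7, 75.1, 40.7 and 64.1 FPKM) and Ppargc1b (1.29, 5.11, 1.92 and 4.87) were high at both 0.2 and 20 U. Nfatc1, Dcstamp and Acp5 had their lowest value at 0.2 U/ml. With 1 value per group, no spread between libraries stands beside these values.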
